A study of Mus musculus with 3 samples.

Results

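Expression of 8 genes of tissue cytokines and their receptors was examined in RNA of sorted lymphatic endothelial cells from the large intestine of C57BL/6 mice. They are Il7, Il7r, Il33, Il1rl1, Il18, Il15, Il25 and Tslp, chosen by name from the 24091 genes listed, and all 8 were found by symbol. Cells from digested intestine had been sorted by flow cytometry on lymphatic surface markers that include CD31, podoplanin and LYVE1, and bulk RNA-seq gave 1 library per sample. All 3 libraries (replicates 1, 2 and 3 below) belong to a single group, with no genetic change or treatment named in the labels. Whether each comes from its own animal is not stated, and their spread may thus be technical. Values are in TPM, a transcript abundance scaled by length and by library total, and means are given ± SD (n = 3). The series has no second condition, so levels were described within libraries.

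These genes connect tissue cells with lymphocytes. Interleukin-7 (IL-7) and IL-15 are survival factors for lymphocytes: IL-7 is made by stromal cells, among them lymphatic endothelium, and acts through the receptor chain IL-7Rα paired with the common gamma chain. IL-33, IL-25 and thymic stromal lymphopoietin (TSLP) are barrier cytokines that act on innate lymphocytes, mast cells and dendritic cells in type 2 immunity. IL-33 is stored in the nucleus and acts when cells are damaged, whereas IL-18, its relative in the IL-1 family, is held as a precursor that inflammasome caspases cleave. In the intestine IL-18 is abundant in epithelium and IL-25 is a product of tuft cells, chemosensory cells of the epithelium.

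The libraries held transcripts of several cell types. All 3 sort marker genes were present, with Lyve1 at 545, 611 and 314 TPM, Pecam1 (CD31) at 117, 109 and 103 TPM and Pdpn at 103, 87.5 and 56.9 TPM in replicates 1, 2 and 3. The 11 lymphatic endothelial markers were all at a TPM of 1 or more throughout and summed to 984 to 1771 TPM, while 10 epithelial markers summed to 10436 to 12026 TPM. The label of lymphatic endothelial cells therefore does not cover all of the RNA, and a level below does not assign a gene to a cell type. Replicate 3 differed most in some marker sums: its lymphatic sum was 984 TPM, against 1692 and 1771 TPM in replicates 1 and 2. Its fibroblast sum was 448 TPM, against 182 and 124 TPM, and its macrophage and dendritic cell sum 538 TPM, against 240 and 164 TPM. Other lists set replicate 1 apart. The epithelial sum was 10436, 11493 and 12026 TPM and the B and plasma cell sum 62.9, 137 and 193 TPM in replicates 1, 2 and 3. Over all detected genes replicate 1 was the most distant. Its median absolute difference was 0.27 (log2) from replicate 3 and 0.24 from replicate 2, against 0.12 between replicates 2 and 3. Ribosomal protein genes held 22.9%, 19.8% and 19.1% of TPM in replicates 1, 2 and 3. In bulk RNA, fewer cells of a type and less RNA per cell cannot be told apart.

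A gene was counted as detected at a TPM of 1 or more in every library. Of the 8 genes, 5 were detected (62.5%), namely Il18, Il7, Il15, Il33 and Tslp, beside 53.4% of all genes listed. The other 3, Il1rl1, Il7r and Il25, stayed below 1 in every library, as did 41% of all genes. Among the detected members, the 5 cytokines spanned from 128 ± 14.0 TPM for Il18 to 1.92 ± 0.708 TPM for Tslp. Both receptor genes among the members were below the threshold. The median of genes detected in every library was 16.9 ± 1.76 TPM.

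**Figure D1:**
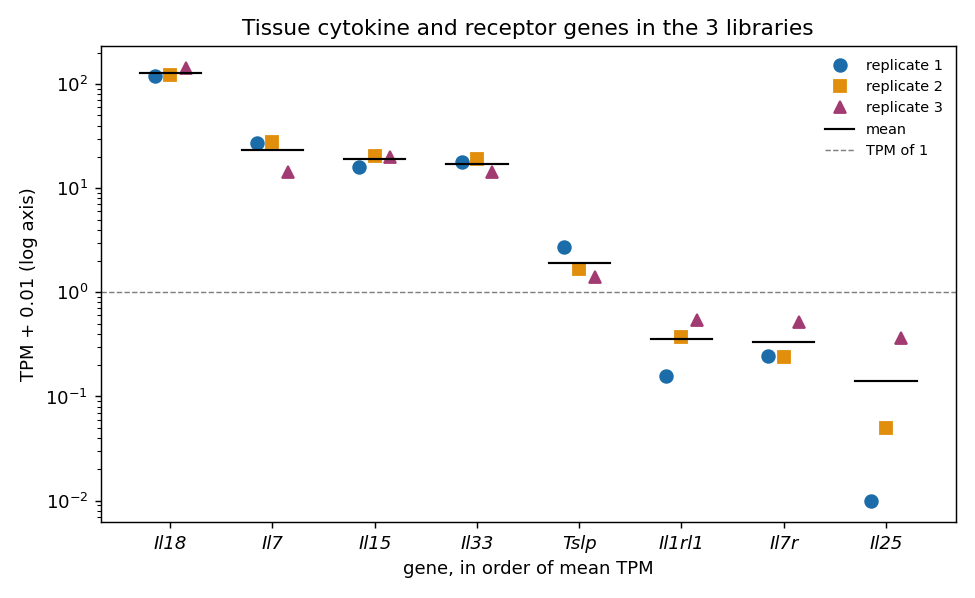
TPM plus 0.01 on a log axis for each of the 8 genes, ordered by mean; symbols are the 3 libraries, black bars the means and the dashed line a TPM of 1. Il18 lies highest at 118 to 144 TPM, Il7, Il15 and Il33 overlap between 14.2 and 27.6 TPM, and Il1rl1, Il7r and Il25 lie below 1 in every library.

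Among the lymphocyte survival factors, Il7 (Entrez 16196, chromosome 3, 7572028 to 7613760) had 27.2, 27.6 and 14.3 TPM in replicates 1, 2 and 3. Replicates 1 and 2 were nearly equal and replicate 3 lay well below both. The mean was 23 ± 7.58 TPM, at percentile 57.5 ± 12.4 of detected genes. Its SD on the log2(TPM + 1) scale was 0.52, at percentile 95.3 among genes of like mean, whose median SD was 0.18. Il7 was thus among the more variable genes of its level, with the difference set by replicate 3.

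Il15 (Entrez 16168, chromosome 8, 82331624 to 82403252), whose product is presented in trans by cells that carry the IL-15 receptor alpha chain, had 16.1, 20.6 and 19.9 TPM. The 3 libraries lay close together, with replicate 1 lowest, and the mean was 18.9 ± 2.40 TPM. Its SD of 0.18 (log2) was at percentile 46.2 for its level. Il7r (Entrez 16197, chromosome 15, 9506159 to 9529941), the receptor chain by which lymphocytes respond to IL-7, had 0.233, 0.230 and 0.506 TPM. Replicate 3 was the highest of the 3, and the mean was 0.323 ± 0.159 TPM.

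Il33 (Entrez 77125, chromosome 19, 29925113 to 29960718), the gene of the nuclear alarmin, had 17.9, 19.0 and 14.2 TPM. Replicate 3 was again lowest, but by less than for Il7, and the mean was 17.1 ± 2.49 TPM. The SD of Il33 was 0.21 (log2), at percentile 52.3 for its level. Il1rl1 (Entrez 17082, chromosome 1, 40404864 to 40465418), which encodes the IL-33 receptor ST2, had 0.146, 0.364 and 0.537 TPM. It was lowest in replicate 1 and highest in replicate 3, with a mean of 0.349 ± 0.196 TPM.

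Il18 (Entrez 16173, chromosome 9, 50554700 to 50581841) was the most abundant member in every library, with 118, 121 and 144 TPM. Replicate 3 was highest, and the mean of 128 ± 14.0 TPM lay at percentile 91.4 ± 0.854 of detected genes. Il18 alone made up 64.8%, 63.6% and 73.8% of the summed TPM of the 8 members in replicates 1, 2 and 3. Its SD was 0.15 (log2), at percentile 67.5 for its level.

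Sequence at the start sites is shown for Il33, its receptor gene Il1rl1 and Il18, because both cytokine genes passed a TPM of 1 in every library and the receptor gene in none. RefSeq windows of 250 bases before and 50 bases after a transcript start (GRCm38.p6, the assembly behind mm10) were at hand for 4 of the 8 members, Il18, Il33, Il1rl1 and Il7r. Each is written 5′ to 3′ on the strand of the gene, with matches to the searched motifs in capitals. The motifs, searched on both strands, were the TATA box TATAAA, the AP-1 site TGANTCA and AGATAA, a form of the GATA site. Other forms of the GATA site were not searched or marked. None of the matches overlap in these windows.
Il33, first window, chr19:29924863-29925162, plus strand: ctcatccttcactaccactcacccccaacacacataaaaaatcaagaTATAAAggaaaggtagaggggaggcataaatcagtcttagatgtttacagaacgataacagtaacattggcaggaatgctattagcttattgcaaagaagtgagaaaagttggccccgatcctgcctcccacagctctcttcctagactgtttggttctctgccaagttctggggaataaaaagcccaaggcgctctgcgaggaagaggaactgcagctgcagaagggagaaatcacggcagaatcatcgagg
Il33, second window, chr19:29945540-29945839, plus strand: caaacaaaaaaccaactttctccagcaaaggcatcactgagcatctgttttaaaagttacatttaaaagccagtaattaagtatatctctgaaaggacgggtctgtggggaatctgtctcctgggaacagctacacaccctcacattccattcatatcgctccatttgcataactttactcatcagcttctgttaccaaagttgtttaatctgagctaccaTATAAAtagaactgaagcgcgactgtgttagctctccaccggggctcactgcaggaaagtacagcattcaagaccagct
Il1rl1, first window, chr1:40429320-40429619, plus strand: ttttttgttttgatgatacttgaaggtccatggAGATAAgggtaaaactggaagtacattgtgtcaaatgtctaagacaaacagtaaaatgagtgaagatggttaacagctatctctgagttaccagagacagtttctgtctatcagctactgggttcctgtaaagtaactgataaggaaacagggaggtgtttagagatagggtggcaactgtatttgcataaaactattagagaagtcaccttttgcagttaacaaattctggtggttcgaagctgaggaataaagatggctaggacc
Il1rl1, second window, chr1:40439379-40439678, plus strand: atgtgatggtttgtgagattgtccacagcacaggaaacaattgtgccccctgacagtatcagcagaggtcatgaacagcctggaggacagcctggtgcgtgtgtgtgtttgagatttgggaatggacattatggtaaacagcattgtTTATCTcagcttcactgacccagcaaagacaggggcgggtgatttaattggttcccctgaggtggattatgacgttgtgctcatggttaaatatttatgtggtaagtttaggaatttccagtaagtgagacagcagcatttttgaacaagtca
Il18, chr9:50554450-50554749, plus strand: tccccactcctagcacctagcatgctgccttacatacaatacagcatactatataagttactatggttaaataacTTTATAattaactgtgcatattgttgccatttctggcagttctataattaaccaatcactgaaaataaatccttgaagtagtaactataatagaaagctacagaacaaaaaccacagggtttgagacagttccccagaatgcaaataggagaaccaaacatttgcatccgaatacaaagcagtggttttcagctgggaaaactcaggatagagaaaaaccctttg

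The windows of Il33 lie 20677 bases apart and those of Il1rl1 10059 bases apart. Both windows of Il1rl1 lie inside the annotated gene (40404864 to 40465418), so the sequence at its upstream end is not shown. In the second window of Il33, TATAAA runs from 29 to 24 bases upstream of the start. In the first it lies 203 to 198 bases upstream, and in Il18 its reverse complement lies 175 to 170 bases upstream. TATAAA occurs on either strand in 13.6% of the 32851 windows of this length. Both windows of Il1rl1 hold AGATAA, as do 11.2% of all windows. In the first it lies 217 to 212 bases upstream on the plus strand. In the second it lies 103 to 98 bases upstream on the minus strand. The AP-1 letters, found in 7.81% of windows, had no match in any of these, and the Il7r window matched none of the 3 motifs. A match in letters is not a binding site, and 1 TPM value per gene does not tell which start was used.

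Of the barrier cytokines, Tslp (Entrez 53603, chromosome 18, 32815383 to 32819799) had 2.72, 1.67 and 1.38 TPM. Replicate 1 was the highest, and the mean was 1.92 ± 0.708 TPM, at percentile 5.20 ± 5.53 of detected genes. Its SD of 0.34 (log2) was at percentile 61.5 for its level. Il25 (Entrez 140806, chromosome 14, 54932695 to 54935837) was listed at 0 in replicate 1 and had 0.0401 and 0.351 TPM in replicates 2 and 3. Its mean of 0.130 ± 0.192 TPM rests on replicate 3 and is 0.0200 TPM without it. The 5 tuft cell markers found by symbol, among them Dclk1, Trpm5 and Pou2f3, summed to 9.55, 17.1 and 7.05 TPM in replicates 1, 2 and 3. Their sum was lowest in replicate 3, the library with the highest Il25 value. Which cells the Il25 transcripts came from was not tested.

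The low values rest on few sequenced fragments. Depth is not recorded in TPM, but genes with a single transcript took stepped values when low. The step size gave an estimate of 32.6, 28.3 and 26 fragments per TPM and kilobase of effective length in replicates 1, 2 and 3. Only protein-coding transcripts were used, and short ones were left out, so ranges may not cover every transcript. Il25, taken at a transcript length of 1064 bases, then stood for about 0, 1 and 8 fragments. Tslp stood for about 82, 45 and 34 fragments and Il7r for about 25, 22 and 44. For Il1rl1 the estimate depends on the transcript, here 1216 to 5302 bases long, and was 5 to 24, 11 to 53 and 14 to 71 fragments. These are estimates from the values. They leave the level of Il25 in replicates 1 and 2 unresolved at this depth, while both receptor genes were above 0 in every library.

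The order of the mean levels was Il18, Il7, Il15, Il33, Tslp, Il1rl1, Il7r and Il25. Il18 exceeded Il7 by 2.48 ± 0.67 (log2(TPM + 1)) and Il33 exceeded Tslp by 2.64 ± 0.28, in 3 of 3 libraries each. Tslp exceeded Il1rl1 by 1.10 ± 0.55 and Il7r exceeded Il25 by 0.23 ± 0.07, also in 3 of 3. The other neighbours did not differ beyond their spread. Il7 minus Il15 was 0.22 ± 0.61, Il15 minus Il33 was 0.14 ± 0.30 and Il1rl1 minus Il7r was 0.02 ± 0.13, each positive in 2 of 3 libraries. Il7 was thus the second most abundant member in replicates 1 and 2, whereas Il15 was second in replicate 3.

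Each cytokine gene was then compared with the gene of a chain of its receptor, within each library. The chain need not be particular to that cytokine, since Il7r also serves the TSLP receptor. Cytokine transcripts exceeded receptor transcripts for 4 of the 6 pairs and were lower for Il25 and Tslp, in 3 of 3 libraries each. The largest of the 6 differences was Il18 minus Il18r1, at 6.40 ± 0.27 on the log2(TPM + 1) scale, with Il18 at 128 ± 14.0 TPM and Il18r1 at 0.522 ± 0.126 TPM. Il7 minus Il7r was 4.13 ± 0.68, with 4.52, 4.54 and 3.34 in replicates 1, 2 and 3, and Il33 minus Il1rl1 was 3.74 ± 0.38, with 4.04, 3.87 and 3.31. In both pairs the difference was smallest in replicate 3, where the cytokine gene was lowest and the receptor gene highest.

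Il15 and its receptor gene stood close together. Il15ra, the chain that presents IL-15, averaged 11.6 ± 2.15 TPM, and Il15 minus Il15ra was 0.67 ± 0.25 (log2), or 1.59-fold. The TSLP pair had the opposite order, with Tslp at 1.92 ± 0.708 TPM and its receptor gene Crlf2 at 19.1 ± 1.80 TPM. Tslp minus Crlf2 was -2.80 ± 0.21 (log2), so Crlf2 was 6.98-fold higher on this scale. Il25 minus Il17rb, the gene of the IL-25 receptor chain, was -0.88 ± 0.37, with Il25 at 0.130 ± 0.192 TPM and Il17rb at 1.09 ± 0.476 TPM. For each of the 6 differences the exact two-sided sign-flip permutation test gave p = 0.25, and 0.25 after Benjamini-Hochberg adjustment over the 6. This is the smallest p that 3 libraries allow, so none could pass 0.05. Folds on the log2(TPM + 1) scale understate differences that involve low genes.

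**Figure D2:**
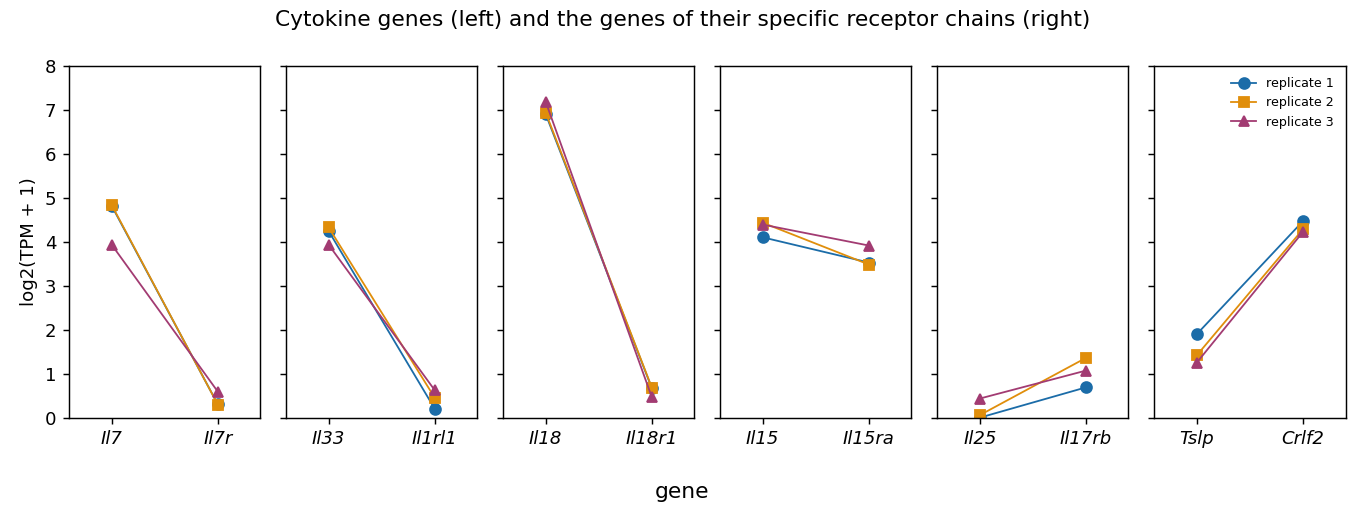
Levels as log2(TPM + 1) of 6 cytokine genes (left of each panel) and of the receptor chain genes set against them (right). Lines join the values of a library. The lines fall steeply for Il7, Il33 and Il18, fall slightly for Il15 (mean difference 0.67) and rise for Il25 and Tslp (mean differences -0.88 and -2.80).

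Il2rg, the common gamma chain shared by the IL-7 and IL-15 receptors, had 20.4, 15.8 and 14.2 TPM and averaged 16.8 ± 3.25 TPM. Il17ra, the shared IL-17 receptor subunit that pairs with the IL-25 receptor chain, averaged 7.12 ± 1.18 TPM, and Il1rap, the accessory chain of ST2, 3.44 ± 0.864 TPM. Il2rb, the signalling chain for IL-15, averaged 0.427 ± 0.282 TPM, and Il18rap, the accessory chain of the IL-18 receptor, 0.463 ± 0.168 TPM. Of the 9 chains outside the members, 5 were detected (55.6%), near the 53.4% of all genes listed. Another 3 stayed below 1 in every library and Il17rb lay between. The TSLP receptor joins the product of Crlf2 to that of Il7r, and of these genes only Crlf2 was detected.

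Il1rl1 lies in a cluster of 6 IL-1 receptor family genes on chromosome 1 that spans 467 kb. In chromosomal order they averaged 0.381 ± 0.331 TPM (Il1r2, a decoy receptor), 9.14 ± 1.62 TPM (Il1r1, the IL-1 receptor), 0.985 ± 0.453 TPM (Il1rl2, the IL-36 receptor), 0.349 ± 0.196 TPM (Il1rl1), 0.522 ± 0.126 TPM (Il18r1) and 0.463 ± 0.168 TPM (Il18rap). Il1r1 was the only 1 of the 6 detected in every library, at 7.39, 9.43 and 10.6 TPM. The direct neighbour of Il1rl1 is Il18r1, with a gap of 133 bases between the annotated genes, and both were below 1 TPM in every library.

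All 13 signal transducers reached a TPM of 1 in every library, beside 53.4% of all genes listed, led by Stat3 (41.0 ± 4.92 TPM), the IL-1 receptor family adaptor gene Myd88 (35.1 ± 4.17 TPM), Jak1 (34.4 ± 6.6 TPM), Stat6 (33.9 ± 7.32 TPM) and Irak1 (32.3 ± 4.54 TPM). Their list median was 18.0 ± 2.86 TPM, against 16.9 ± 1.76 TPM for all detected genes.

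Of 11 genes for processing and release, 10 were detected (90.9%), beside 53.4% of all genes listed. Their median was 44.2 ± 2.07 TPM. Pycard, the inflammasome adaptor ASC, averaged 182 ± 15.2 TPM, and Casp1, the protease that cleaves IL-18, had 129, 138 and 154 TPM. Gsdmd, which forms the release pore, averaged 103 ± 12 TPM, the inflammasome sensor gene Nlrp6 76.3 ± 22.6 TPM and Casp8 46.7 ± 4.20 TPM. The sensor gene Nlrp3, typical of myeloid cells, was the 1 gene not detected, listed at 0 in replicate 1 with 0.131 and 0.0716 TPM in replicates 2 and 3. Casp1 and Il18 were thus at like levels per length. Both were highest in replicate 3, as were 40.5% of detected genes and 8 of these 11 processing genes, Casp1 among them.

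Of 8 genes for binding proteins and inhibitors, 7 were detected (87.5%), beside 53.4% of all genes listed. Their median was 11.3 ± 1.45 TPM. Sigirr, an inhibitory member of the IL-1 receptor family, averaged 42.7 ± 2.26 TPM, Socs2 37.9 ± 4.27 TPM, Il1rn 29.1 ± 1.81 TPM, Cish 11.2 ± 2.29 TPM and Socs3 10.8 ± 0.411 TPM. Il18bp, the secreted IL-18 binding protein, averaged 7.14 ± 0.876 TPM, below the 128 ± 14.0 TPM of Il18. Among 33 related cytokine genes, 9 were detected (27.3%), beside 53.4% of all genes listed. Of the others, 21 stayed below 1 in every library and 3 lay between. The list was led by Tnfsf13 (APRIL, 44.5 ± 2.01 TPM), the stem cell factor gene Kitl (29.4 ± 6.74 TPM), Flt3l (16.2 ± 3.08 TPM), Il17d (8.88 ± 0.811 TPM) and Csf1 (6.39 ± 0.667 TPM). The type 2 cytokine genes Il5 and Il9 were listed at 0 in every library, and Il4 and Il13 averaged 0.205 ± 0.152 and 0.152 ± 0.264 TPM. By mean TPM, Il7, Il15 and Il33 thus lay between Kitl and Il17d, and Il18 above all 33. In replicate 1, however, Il7 (27.2 TPM) was above Kitl (21.6 TPM).

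**Figure D3:**
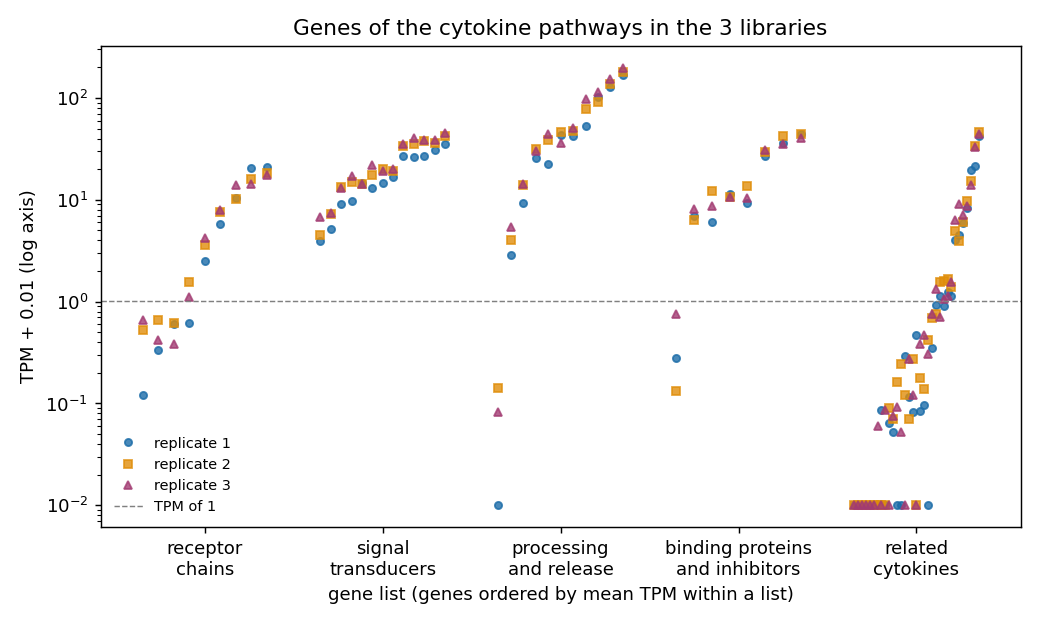
TPM plus 0.01 on a log axis for the genes of 5 pathway lists, ordered by mean within each list; symbols are the 3 libraries and the dashed line is a TPM of 1. All 13 signal transducers and 10 of 11 processing genes lie above the line in every library, against 9 of 33 related cytokines. Of all genes listed, 53.4% passed the same rule.

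Differences between the libraries were then set beside the marker genes of cell types. For each detected member, the markers with the smallest root-mean-square difference of their centred log2(TPM + 1) over the 3 libraries were taken from 73 markers at a mean TPM of 1 or more. For Il7 these were Reln (0.02), Mmrn1 (0.05) and Lyve1 (0.06), all lymphatic endothelial genes. Il7 amounted to 5.0%, 4.52% and 4.55% of Lyve1 in replicates 1, 2 and 3, and to 1.61%, 1.56% and 1.45% of the summed lymphatic markers. The ratio to lymphatic markers thus varied by 5.22% (coefficient of variation), while Il7 itself varied by 32.9%. Against the epithelial sum the ratio of Il7 varied by 37.2% and against the blood endothelial sum by 31.4%. The 9 blood endothelial markers did not move together, since 5 were highest and 3 lowest in replicate 3. Against single genes of that list, Gpihbp1 (193, 176 and 88.9 TPM) and Emcn (156, 146 and 85.7 TPM), the ratio of Il7 varied by 6.87% and 6.58%, close to the value for the lymphatic sum, so the likeness was not particular to lymphatic genes.

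For Il33 the nearest markers were Nr2f2 (0.04), Maf (0.07) and Sox18 (0.08), again from the lymphatic endothelial list. Its ratio to the lymphatic sum varied by 18.5%, to the epithelial sum by 19.2% and to the blood endothelial sum by 14.4%, and Il33 itself by 14.6%, so no list gave a clearly steadier ratio. For Il18 the nearest were Kit (0.03), Cnn1 (0.06) and Krt8 (0.07), genes of 3 different lists. Its ratio to the epithelial sum was 1.14%, 1.06% and 1.2%, with a coefficient of variation of 6.30%, against 46.9% for the lymphatic sum. The ratio to the mast cell and basophil sum, which is nearly all Kit, varied by 3.32%, and Il18 itself by 10.95%. For Il15 the nearest were Nrp2 (0.04) of the lymphatic endothelial list and the epithelial genes Krt8 (0.07) and Cdh1 (0.07). Nrp2 was the exception of its list, lowest in replicate 1, whereas 10 of the 11 lymphatic markers were lowest in replicate 3. The ratio of Il15 to the epithelial sum varied by 7.31%, against 41.2% for the lymphatic sum, and Il15 itself by 12.7%. With libraries rescaled by their median gene ratio, the SD of Il15 fell from 2.40 to 0.770 TPM. Tslp had no marker as near, with Pdpn, Krt18 and Tbx1 at 0.18 to 0.19. These likenesses rest on 3 points each, and many genes share any such pattern: 22.9% of detected genes were lowest in replicate 3, as were Il7, Il33 and Tslp, and 40.5% were highest there, as was Il18.

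**Figure D4:**
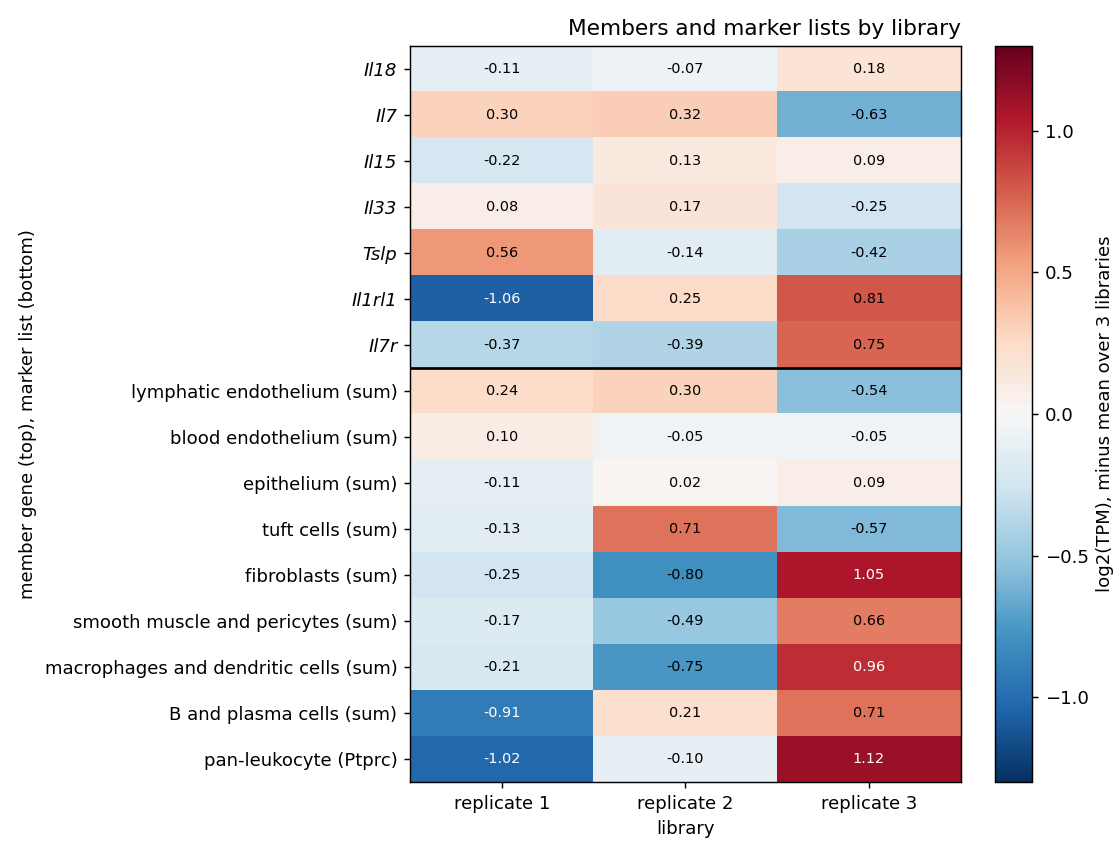
Log2(TPM) of each library minus the mean over the 3 libraries, for 7 member genes (top; Il25 is left out because it was listed at 0 in a library) and for the summed TPM of marker lists (bottom). Il7 (0.30, 0.32 and -0.63) and the lymphatic endothelial sum (0.24, 0.30 and -0.54) run alike. Il7r and Il1rl1 are highest in replicate 3, as are the fibroblast, smooth muscle, macrophage, B and plasma cell and Ptprc rows. The epithelial sum is also highest there, by less (0.09).

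The receptor genes Il7r and Il1rl1 were highest in replicate 3, where leukocyte markers were also highest. So were the fibroblast, smooth muscle and epithelial sums, and 40.5% of all detected genes. Ptprc, the pan-leukocyte gene, had 1.41, 2.67 and 6.22 TPM in replicates 1, 2 and 3. The T cell receptor complex genes were low and also highest in replicate 3, with Cd3d at 1.26, 1.04 and 2.04 TPM and Cd3e at 0.15, 0.73 and 1.75 TPM. Ncr1, a marker of natural killer cells and some innate lymphocytes, was listed at 0 in every library. Of the 6 mast cell and basophil markers only Kit was detected, and Fcer1a was listed at 0 throughout. The part of leukocytes, or of the other cell types that were higher in replicate 3, in these receptor values was not tested.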

How the data were processed

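RNA of sorted intestinal lymphatic endothelial cells was sequenced in 3 libraries, which form 1 group per the labels. The deposited tables give 1 TPM value for each of 24091 genes, per the file headers. The submitters' processing notes name mm10, Cell Ranger 6.0.1 and HTSeq; how TPM was computed and with which annotation is not given in the sources used here. Entrez IDs were matched to RefSeq of GRCm38.p6 (24045 matched, among them all 8 members). No value above 0 was identical between libraries.

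Values were taken as log2(TPM + 1), with a pseudocount of 1. Detection meant a TPM of 1 or more in every library. Percentiles of SD were taken in 20 bins of mean level, over genes at a mean TPM of 1 or more. Cytokine and receptor genes were compared by exact sign-flip tests within libraries. TPM keeps no depth; fragments were estimated from the steps of 9830 single-transcript genes, whose phase score was 0.533, 0.536 and 0.575, against 0.114, 0.0988 and 0.132 with shuffled lengths. No counting intervals were computed. The spread and depth steps were tested on simulated data.

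The members and lists were chosen with earlier results of these data known. Named genes are the 8 members, all receptor chains, the 5 highest genes of each other pathway list and the 3 nearest markers of each detected member. Nlrp3, Il18bp, Il4, Il5, Il9, Il13, the IL-1 receptor cluster, the markers named singly, the ratios of Il7 to single markers and the ratios to marker sums were chosen after their values were seen. The 3 IL-36 cytokine genes were matched through RefSeq synonyms, and Sh2d6 was not found by symbol. The values of a single further marker gene on the fixed lists are not reported here. Computations used pandas 2.3.3 and numpy 2.4.6 under Python 3.11.15, and figures matplotlib 3.10.9.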

Additional observations from a re-analysis of the deposited data

How the results depend on the processing

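The 6 cytokine minus receptor differences had 36 alternatives (other scalings, a pseudocount of 0.1 and leaving out each replicate). None could reverse a direction, because each difference had the same sign in every library and these changes keep that sign. Only the sizes could change, as for Il7 minus Il7r, from 3.93 (without replicate 2) to 5.77 (pseudocount of 0.1). The count of 5 detected members ranged from 4 (TPM threshold of 5) to 7 (no filter) over its 9 alternatives. Of the 7 neighbour differences in the order of levels (log2), 3 turned sign when a library was left out. Il7 minus Il15 ranged from -0.024 (without replicate 1) to 0.56, Il15 minus Il33 from -0.018 (without replicate 3) to 0.28 and Il1rl1 minus Il7r from -0.038 (without replicate 2) to 0.089. With a pseudocount of 0.1, which widens differences of low genes, Il33 minus Tslp was 3.13, Tslp minus Il1rl1 2.22 and Il7r minus Il25 1.13. At a TPM threshold of 5, 5 related cytokines were detected in place of 9. Rescaling without ribosomal protein genes raised member means 1.24-fold to 1.27-fold, by its construction. No paired analysis was possible because the series has 1 group.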
